A study of Mus musculus with 13 samples.

Results

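The oligoadenylate synthetase (Oas) family was described in bulk RNA-seq of CD45- thymic stromal cells, that is, of thymic cells without the leukocyte surface protein CD45. The genes Oas1a, Oas1b, Oas1c, Oas1g, Oas2, Oas3, Oasl1 and Oasl2 were taken by symbol, 8 of the 53379 genes of the count table, which lists 12 genes whose symbol starts with Oas. They were chosen by family with the measured differences between these same conditions already known from an earlier look at the libraries, so that their values are given as a description. Counts of these genes past a threshold in the edgeR fit over all libraries are printed beside those of all genes. Counts under alternatives such as DESeq2 are printed without them. None of these counts is used as support.

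All mice were wild-type C57BL/6 animals 2 months old. Steady state was represented by 4 libraries, which the sample labels call untreated and the count table names PBS controls of days 1, 4 and 7. Sublethal total body irradiation (TBI) was followed by collection at day 1, day 4 or day 7, with 3 libraries each. The study depleted CD45+ cells magnetically and sorted the remainder by flow cytometry, so that each library pools epithelial, endothelial and mesenchymal cells. The study's methods call the bulk libraries biological replicates, and the labels do not say how many mice went into each. SDs measure the spread between these libraries. The p-values weigh a difference between conditions against a spread estimated from all of these libraries.

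Oligoadenylate synthetases bind double-stranded RNA and then join ATP into 2-5A, short chains of adenylate with 2′-5′ bonds, a second messenger that leads to the cutting of viral and cellular RNA. The genes are classic targets of type I and type III interferon, whose receptors act on the interferon-stimulated response element (ISRE) of their promoters. In the thymus, medullary epithelial cells are known to make some interferon without infection. Oas1a and Oas1g encode small active synthetases, Oas2 and Oas3 larger ones with repeated synthetase units, and Oas1c a homolog without synthetase activity. Oas1b is best known as the flavivirus resistance gene of mice and carries a premature stop codon in C57BL/6. Oasl1 and Oasl2 encode synthetase-like proteins with ubiquitin-like tails, of which OASL2 keeps synthetase activity and OASL1 is known to repress translation of Irf7 mRNA.

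The family lies in 2 groups on chromosome 5 of GRCm38, by the GENCODE M21 annotation. Oasl2 (ENSMUSG00000029561, chr5:114896936-114912234, + strand) and Oasl1 (ENSMUSG00000041827, chr5:114923240-114937915, + strand) are neighbours. The second group runs from Oas2 (ENSMUSG00000032690, chr5:120730333-120749853, - strand) through Oas3 (ENSMUSG00000032661, chr5:120753098-120777661, - strand) and Oas1c (ENSMUSG00000001166, chr5:120800194-120812514, - strand) to Oas1b (ENSMUSG00000029605, chr5:120812635-120824163, + strand). Farther on lie Oas1g (ENSMUSG00000066861, chr5:120876142-120887613, - strand) and Oas1a (ENSMUSG00000052776, chr5:120896256-120907521, - strand). Oas1b and Oas1c are transcribed away from each other, with 120 bases between their annotated starts. Oas1b has the annotated class of a polymorphic pseudogene, whereas the other 7 genes are protein coding.

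Promoter windows of 300 bases, 250 before and 50 after the annotated start, were found in RefSeq (GRCm38.p6) for 6 of the 8 genes. The ISRE was searched on both strands as GAAA, any 2 bases and GAAA again, and 3.44% of 32851 mouse promoter windows of the same length held it. It was present in the windows of Oas1a, Oas1g, Oas1c and Oas3 and not in those of Oasl1 and Oasl2. These 4 windows are shown because they hold the letters through which an interferon-responsive gene is commonly recognised. They also show what the close relatives Oas1a and Oas1g share. Each is given on the strand of its gene from the 5′ end, with the matched bases in capitals (Oas1a at chr5:120907476-120907775, Oas1g at chr5:120887564-120887863, Oas1c at chr5:120812465-120812764 and Oas3 at chr5:120777610-120777909, all on the - strand).
Oas1a: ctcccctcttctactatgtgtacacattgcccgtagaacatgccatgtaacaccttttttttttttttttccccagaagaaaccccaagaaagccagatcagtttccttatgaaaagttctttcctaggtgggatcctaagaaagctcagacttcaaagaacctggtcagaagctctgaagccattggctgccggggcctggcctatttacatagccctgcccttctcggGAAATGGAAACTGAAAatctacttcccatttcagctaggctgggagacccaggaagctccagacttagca
Oas1g: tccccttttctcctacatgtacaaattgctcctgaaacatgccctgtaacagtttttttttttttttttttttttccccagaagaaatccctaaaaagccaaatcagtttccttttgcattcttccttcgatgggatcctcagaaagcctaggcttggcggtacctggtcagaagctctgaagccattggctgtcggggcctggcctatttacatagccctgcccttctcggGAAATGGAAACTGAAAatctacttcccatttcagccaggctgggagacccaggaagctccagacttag
Oas1c: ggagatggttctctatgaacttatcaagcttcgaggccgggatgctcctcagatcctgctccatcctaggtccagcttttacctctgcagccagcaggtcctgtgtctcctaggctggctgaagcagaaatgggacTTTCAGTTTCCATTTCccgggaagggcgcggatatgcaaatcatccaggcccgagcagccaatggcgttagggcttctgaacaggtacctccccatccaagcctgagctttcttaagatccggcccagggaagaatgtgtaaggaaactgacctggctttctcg
Oas3: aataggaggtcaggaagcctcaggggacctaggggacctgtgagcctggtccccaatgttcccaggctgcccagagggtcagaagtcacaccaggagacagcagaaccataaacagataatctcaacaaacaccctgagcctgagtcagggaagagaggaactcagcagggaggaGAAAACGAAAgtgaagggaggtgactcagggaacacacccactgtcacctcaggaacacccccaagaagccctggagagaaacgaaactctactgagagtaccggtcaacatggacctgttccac

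Oas1a and Oas1g carried the same run of 16 bases, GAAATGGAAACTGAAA, in which a pair of ISRE matches overlap. The run lay 20 to 5 bases before the start of Oas1a and 18 to 3 bases before that of Oas1g, and the windows of both genes were identical at 85.3% of aligned positions. Other pairs of windows were identical at 42.0% to 48.7%. The window of Oas1c held the reverse complement of the run, TTTCAGTTTCCATTTC, at 114 to 99 bases before its start. Because Oas1b starts on the other side of that stretch, the same bases read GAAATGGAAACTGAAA on the strand of Oas1b, 22 to 7 bases before its annotated start. The 16-base run occurred on either strand in 7 of 32851 windows (0.0213%), which belong to the 5 genes Apol9a, Apol9b, Oas1a, Oas1c and Oas1g. In Oas3 a single match, GAAAACGAAA, lay 75 to 66 bases before the start. The gamma-activated site, searched as TTCNNNGAA and present in 8.30% of all windows, had 1 match among the 6 windows, TTCAAAGAA at 98 to 90 bases before the start of Oas1a. A match is a stretch of letters and not a measured binding site.

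Total counts were between 15721866 and 52056896 per library (median 44078906). Of all genes, 19984 passed the filter on low counts, and all 8 Oas genes were among them with at least 40 counts in every library. Expression is given as CPM, counts scaled to a common library total, after TMM normalization, which allows for differences in library composition. Column names of the table end in a tag whose meaning is not given in the sources used here. The tags fall into 3 kinds (starting in kk, starting in k3, and others), which are spread unevenly over the conditions. Epithelial, endothelial and fibroblast markers were detected in every library, as the label of the cells requires, but so were thymocyte markers (sums of 7 genes between 13.8 and 2953 CPM) and erythroid markers (sums of 3 genes between 5.46 and 11785 CPM).

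All 8 Oas genes were at their highest mean level at day 1, and 7 of them were several-fold above steady state. Oas1a, Oas1g, Oas2, Oas3 and Oasl1 were 9.40-fold to 12.9-fold higher, Oasl2 and Oas1b 4.44-fold and 4.22-fold, and Oas1c 2.13-fold. Levels of all genes but Oas1c at day 4, and of all 8 genes at day 7, were back within 0.48 log2 units of steady state. Bulk RNA cannot separate a change in the number of expressing cells from a change in the RNA per cell.

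**Figure D1:**
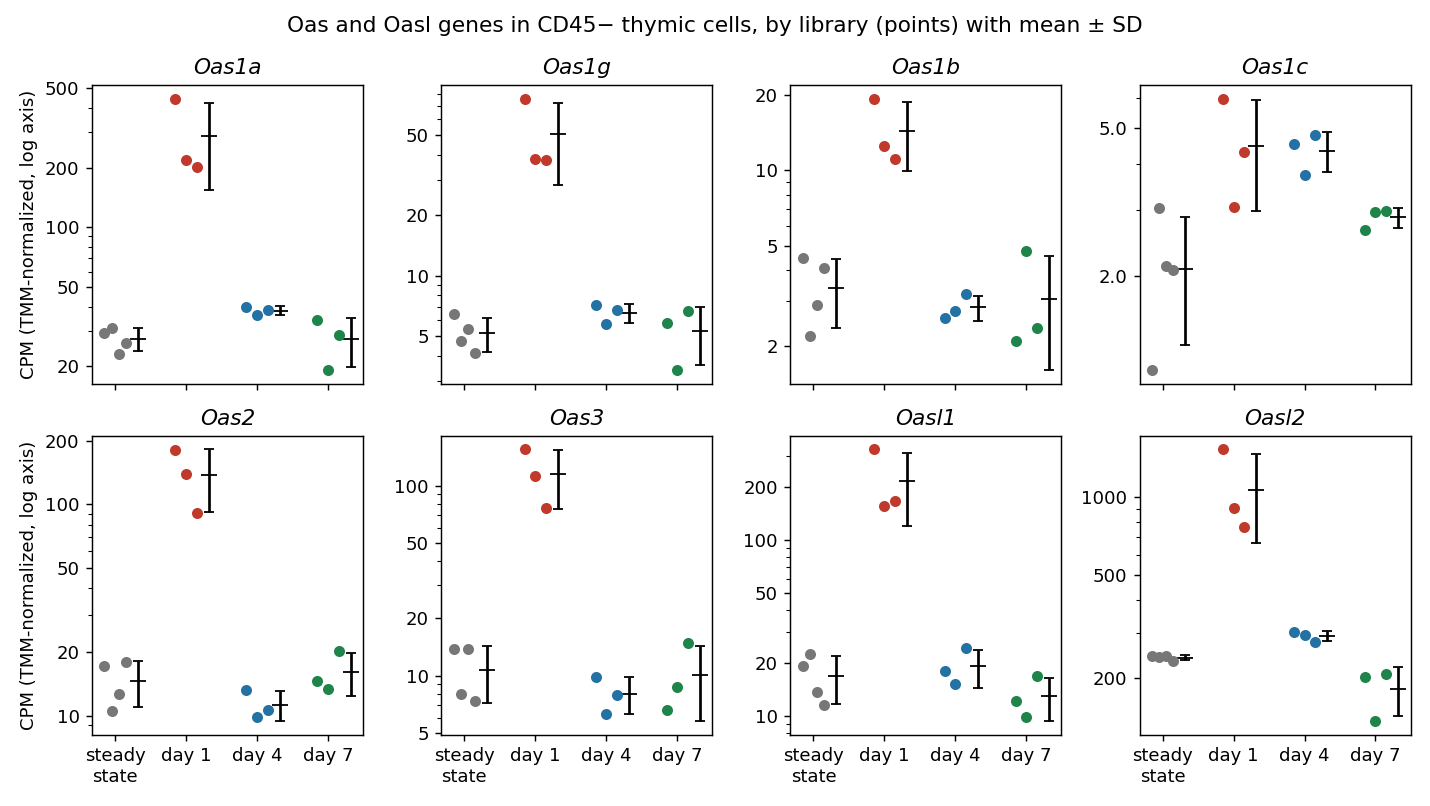
Levels of the 8 Oas and Oasl genes in each library (points, TMM-normalized CPM on a log axis that differs between panels) at steady state (n = 4) and 1, 4 and 7 days after TBI (n = 3 each), with mean ± SD in black. The day 1 points lie above the steady-state points in all 8 panels, and in the Oas1c panel the day 4 points lie within the span of the day 1 points.

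Oas1a, the most abundant of the Oas1 genes, was at 29.5, 31.4, 23.1 and 26.2 CPM in the steady-state libraries. It was at 445, 219 and 202 CPM at day 1, at 39.9, 36.2 and 38.5 CPM at day 4 and at 34.2, 19.2 and 28.9 CPM at day 7. The day 1 libraries were all far above the others, the day 4 libraries were all slightly above steady state, and the day 7 libraries overlapped it. The log2 fold change at day 1 was 3.39 (SE 0.29, 95% interval 2.75 to 4.02). Here and below, log2 fold changes with their SEs come from 1 edgeR fit over 13 libraries, and intervals are for single genes, not adjusted for the number of genes.

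Oas1g, the close relative of Oas1a, followed it at a lower level. Its steady-state libraries were at 6.47, 4.75, 5.44 and 4.12 CPM, and the day 1 libraries at 76.2, 37.9 and 37.5 CPM. Values of 7.16, 5.78 and 6.74 CPM at day 4 and of 5.80, 3.40 and 6.72 CPM at day 7 both overlapped steady state. The log2 fold change at day 1 was 3.28 (SE 0.32). Of the stretches of 50 bases in their transcripts, 57.6% of those of Oas1a and 45.7% of those of Oas1g also occur in another gene, mostly in each other. The counting tool was run with its defaults, under which a read that aligns to several places is left out and not split, so that the levels of both genes may be understated. The ratio of Oas1a to Oas1g per kb of exon was 6.76 ± 1.51 (SD, n = 4) at steady state, 7.04 ± 0.297 (n = 3) at day 1, 7.26 ± 0.458 (n = 3) at day 4 and 6.55 ± 1.06 (n = 3) at day 7, with overlapping ranges.

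Oas1b was at 4.45, 2.18, 2.90 and 4.07 CPM at steady state and at 19.3, 12.5 and 11.1 CPM at day 1. It was at 2.58, 2.74 and 3.20 CPM at day 4 and at 2.09, 4.77 and 2.36 CPM at day 7. The day 1 libraries were above all others, and the day 4 and day 7 libraries both overlapped steady state. With a log2 fold change of 2.08 (SE 0.36), the difference at day 1 was smaller than that of Oas1a, Oas1g, Oas2, Oas3 and Oasl1.

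Oas1c, the divergent neighbour of Oas1b, had another course. It was at 1.12, 3.05, 2.13 and 2.08 CPM at steady state, at 6.00, 3.06 and 4.31 CPM at day 1, at 4.52, 3.74 and 4.78 CPM at day 4 and at 2.67, 2.97 and 2.98 CPM at day 7. The lowest day 1 library stood only just above the highest steady-state library. Its day 1 and day 4 libraries overlapped, and those of day 7 overlapped steady state. The log2 fold change was 1.09 (SE 0.35, 95% interval 0.35 to 1.84) at day 1 and 1.05 (SE 0.35, 95% interval 0.30 to 1.80) at day 4. Of the exonic length of Oas1c, 9.44% overlaps the gene Gm43069 on the other strand, and 15.1% of its 50-base stretches occur in other genes, chiefly Gm43069 and Oas1e. The default counting ignores strand and leaves out reads that fall on more than 1 gene. Per kb, Oas1b was 3.98 ± 0.917 times (SD, n = 3) the level of Oas1c at day 1 and 0.795 ± 0.0980 times (n = 3) at day 4, with ranges that did not overlap. At steady state the ratio spread from 0.861 to 4.81 over the 4 libraries.

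Oas2 was at 17.1, 10.6, 12.7 and 18.0 CPM at steady state, at 181, 139 and 91.0 CPM at day 1, at 13.3, 9.85 and 10.6 CPM at day 4 and at 14.6, 13.4 and 20.2 CPM at day 7. The log2 fold change at day 1 was 3.23 (SE 0.28). At day 4 its estimate was below steady state (-0.38, SE 0.28), with overlapping libraries, and all day 7 libraries were above those of day 4.

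Oas3, the largest of the synthetases, was at 13.8, 8.05, 13.8 and 7.31 CPM at steady state and at 155, 113 and 76.5 CPM at day 1. It was at 9.87, 6.30 and 7.92 CPM at day 4 and at 6.58, 8.73 and 14.8 CPM at day 7. Only the day 1 libraries stood apart, with a log2 fold change of 3.42 (SE 0.36). The ratio of Oas2 to Oas3 per kb was 2.36 ± 1.07 (SD, n = 4) at steady state and 1.90 ± 0.0568 (n = 3) at day 1. It was 2.25 ± 0.203 (n = 3) at day 4 and 2.71 ± 0.711 (n = 3) at day 7, both with ranges wholly above day 1. The steady-state libraries spread from 1.46 to 3.91.

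Oasl1 had the largest log2 fold change of the family at day 1, 3.69 (SE 0.34, 95% interval 2.94 to 4.43). Its steady-state libraries were at 19.3, 22.6, 13.7 and 11.5 CPM and its day 1 libraries at 327, 156 and 166 CPM. Levels of 18.1, 15.2 and 24.3 CPM at day 4 and of 12.1, 9.85 and 16.8 CPM at day 7 overlapped those of steady state.

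Oasl2 was the gene with the highest level and the most even steady state, 244, 241, 244 and 233 CPM. It was at 1529, 910.0 and 767 CPM at day 1, at 301, 295 and 276 CPM at day 4 and at 202, 137 and 207 CPM at day 7. All day 1 and day 4 libraries were above steady state and all day 7 libraries below it. The log2 fold changes were 2.15 (SE 0.25) at day 1, 0.27 (SE 0.24) at day 4 and -0.40 (SE 0.25) at day 7.

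**Figure D2:**
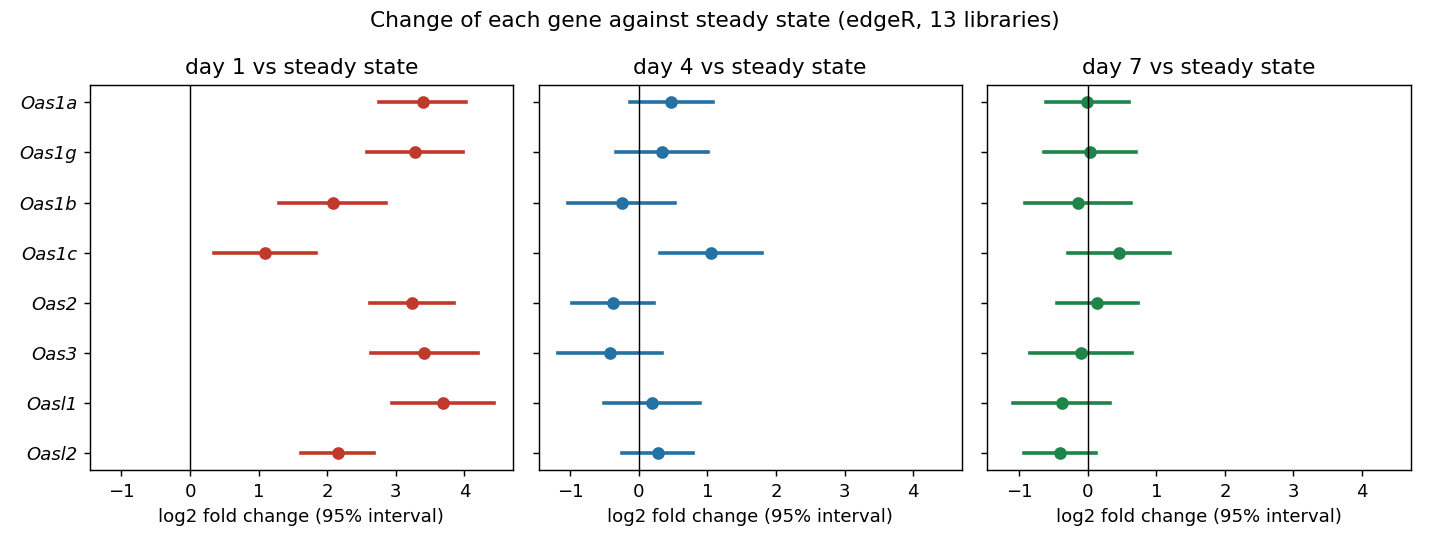
Log2 fold change of each gene against steady state (points) with its 95% interval (lines) at day 1, day 4 and day 7 after TBI, from 1 edgeR fit over 13 libraries. At day 1 the 8 estimates run from 1.09 (Oas1c) to 3.69 (Oasl1), and at day 4 and day 7 the intervals of all genes but Oas1c at day 4 include 0.

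At day 1, 7 of the 8 genes were past an adjusted p-value of 0.05 or less (edgeR quasi-likelihood F-test, Benjamini-Hochberg over 19984 genes), all higher than at steady state, and Oas1c was not. Of all genes tested, 1.68% were called higher at day 1 by this rule and 0.671% lower. The CPM ranges of both conditions did not overlap for 8 of 8 genes, where 7.25% of all genes had day 1 ranges wholly above steady state and 8.56% wholly below. Because the genes were chosen with these results known, nothing is read from these counts. The median log2 fold change of the family was 3.26, against -0.10 over all 19984 genes.

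At day 4 against steady state, 0 of 8 genes were called by edgeR, where 0.29% of all genes were. At an unadjusted p under 0.05 there was 1, beside 2602 of the 19984 genes tested. DESeq2 called 1, Oas1c. Ranges at day 4 lay wholly above steady state for Oas1a, Oas1c and Oasl2, 3 of 8 genes, and wholly below it for 0, against 6.44% and 8.22% of all genes. Estimates ran from -0.42 (Oas3) to 1.05 (Oas1c), with a median of 0.23 against -0.13 over all genes.

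At day 7 against steady state, edgeR and DESeq2 both called 0 of 8 genes, and 0.005% of all genes were called by edgeR. An unadjusted p under 0.05 was found for 0 of the 8 and for 2691 of the 19984 genes tested. Oasl2 was the 1 gene of the family whose day 7 range lay wholly below steady state, against 4.67% of all genes, and 0 lay wholly above, against 2.82%. Estimates were between -0.40 (Oasl2) and 0.46 (Oas1c), and the median of -0.05 stood beside 0.00 over all genes. The intervals still allow changes of some size, such as 0.524-fold to 1.09-fold for Oasl2.

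Against day 1, 7 of 8 genes were called lower at day 4 and 7 of 8 at day 7, all but Oas1c in both comparisons, where 1.07% and 4.45% of all genes were called lower. Both comparisons share the day 1 libraries. At day 4 the call of Oas1b was lost with the tag kind as a covariate, with the replicate number as a block and without any 1 of the 3 day 4 libraries, and that of Oasl2 was lost with the block, which left 5 of 8. Ranges at day 4 lay wholly below day 1 for 7 genes (13.7% of all genes) and ranges at day 7 for 8 genes (14.8% of all genes). Oas3 was 14.3-fold lower at day 4 than at day 1 and Oas2 12.2-fold lower, whereas Oasl2 was 3.68-fold lower. Oasl1 was 11.3-fold lower at day 4 and 16.7-fold lower at day 7. The estimate of Oas1c from day 1 to day 4 was -0.04 (SE 0.37, 95% interval -0.84 to 0.76), and from day 1 to day 7 it was -0.64 (SE 0.37).

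Between day 4 and day 7, 0 of 8 genes were called by edgeR and 0 by DESeq2, and 3.9% of all genes were called by edgeR, 2.77% higher and 1.13% lower. An unadjusted p under 0.05 was found for 1 of the 8 and for 3735 of the 19984 genes tested. Day 7 ranges were wholly below day 4 for Oas1a, Oas1c and Oasl2 (14.0% of all genes) and wholly above for Oas2 (12.2% of all genes). The estimates were -0.68 (SE 0.26) for Oasl2 and 0.52 (SE 0.29) for Oas2.

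Replicate 1 had the highest CPM of the 3 day 1 libraries for 8 of 8 Oas genes, with the highest library at 1.74 times to 2.20 times the lowest. It stood at 2.03, 2.01 and 1.96 times the middle library for Oas1a, Oas1g and Oasl1, and at 1.68 and 1.54 times for Oasl2 and Oas1b. For Oas2, Oas3 and Oas1c it stood at 1.30, 1.38 and 1.39 times the middle library. The lowest library of these genes also lay well below the middle one. Over all genes kept, replicate 1 was highest for 49.0%. Without it the log2 fold changes at day 1 were 2.94 for Oas1a, 2.86 for Oas1g and 1.81 for Oasl2. Within the kinds of tag, day 1 was set against steady state by differences of mean log2(CPM + 0.5). These were 1.33 to 4.77 for the 1 library each with a kk tag, which at day 1 is this same replicate 1. For the 2 libraries each with another tag they were 1.01 to 3.27. In both kinds, 8 of 8 genes were higher at day 1.

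At day 4, 5 of 8 genes were higher than at steady state among k3 tags (2 libraries against 1) and 5 of 8 among other tags (1 against 2), and at day 7 it was 2 of 8 among k3 tags (2 against 1) and 6 of 8 among kk tags (1 against 1).

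Markers of other cells in these libraries also moved. Ptprc, which encodes CD45, was between 24.0 and 119 CPM at steady state and between 12.7 and 15 CPM at day 1, and 6 of 7 thymocyte markers were lower in every day 1 library, their sums going from 149 to 513 CPM at steady state to 75.6 to 96.6 CPM. Macrophage and monocyte markers summed to 46.2 to 137 CPM at steady state and 65.2 to 114 CPM at day 1, with 1 of 6 (Cd68) above in every library. Neutrophil markers summed to 2.15 to 17.5 CPM and 11.2 to 28.8 CPM, with 1 of 4 (Retnlg) above. Dendritic cell markers, those of plasmacytoid cells included, summed to 3.93 to 13.1 CPM and 2.88 to 3.75 CPM, with 2 of 5 below and none above, and the 3 B cell markers to 1.33 to 4.10 CPM and 0.963 to 2.55 CPM. All 3 erythroid markers were below steady state at day 1 (1251 to 5061 CPM against 5824 to 11785 CPM). Epithelial markers summed to 493 to 1732 CPM at steady state and 981 to 1620 CPM at day 1, endothelial markers to 442 to 781 CPM and 461 to 560.3 CPM, and fibroblast markers to 2466 to 29311 CPM and 5993 to 19461 CPM. Of the 4 fibroblast markers, Pdgfrb alone was above in every library (303 to 618 CPM at steady state and 1175 to 1780 CPM at day 1). At day 4 epithelial markers summed to 1796 to 2510 CPM, above the sums of all steady-state libraries. Of the 6 markers, Krt5 alone was above in every library (919 to 1294 CPM against 160 to 524 CPM). Mean levels of Krt8, Foxn1 and Psmb11 were also higher, and those of Epcam and Aire were lower. Thymocyte markers (13.8 to 22.2 CPM), erythroid markers (5.46 to 6.39 CPM) and Ptprc (4.07 to 4.54 CPM) were below all steady-state libraries at day 4. At day 7 Ptprc was between 21.6 and 606 CPM and thymocyte markers summed to 124 to 2953 CPM. No marker of these lists was at 0 in all libraries of a condition. The part of these cells in the Oas levels was not tested.

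Counted per kb of exon, so that genes can be compared with each other, the steady-state order was Oasl2 (37.7 ± 0.757 CPM per kb, SD, n = 4), Oas1a (14.6 ± 1.95), Oasl1 (6.44 ± 1.96), Oas2 (3.28 ± 0.798), Oas1g (2.22 ± 0.431), Oas1b (1.71 ± 0.526), Oas3 (1.52 ± 0.498) and Oas1c (0.871 ± 0.328). The ranges of the first 3 genes were separate from each other and from the rest, and from Oas2 downwards each gene overlapped the next. At day 1 Oasl2 (168 ± 63.6, n = 3), Oas1a (153 ± 71.7) and Oasl1 (82.9 ± 36.7) overlapped, followed by Oas2 (30.8 ± 10.1), Oas1g (21.6 ± 9.49), Oas3 (16.2 ± 5.56), Oas1b (7.20 ± 2.21) and Oas1c (1.85 ± 0.612), of which Oas1b and Oas1c stood apart from their neighbours. With the longest annotated transcript as the length, Oas1b and Oas3 exchanged ranks at steady state, day 4 and day 7. Ranges and shares per kb also depend on the length and are given here by exonic length only. Oas1a has 1885 bases by both lengths, whereas Oasl2 has 6374 exonic bases and a longest transcript of 3123 bases. By the longest transcript the level and share of Oasl2 per kb would therefore be higher.

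The makeup of the family total shifted at day 1. The summed level of the 8 genes was 321 ± 12 CPM (SD, n = 4) before irradiation, 1895 ± 739 CPM (n = 3) at day 1, 381 ± 13.1 CPM (n = 3) at day 4 and 259.7 ± 53.3 CPM (n = 3) at day 7. Per kb of exonic length, Oasl2 made up 55.3% ± 2.83 of the total before irradiation and 35.1% ± 1.40 at day 1. Its share was back at 55.0% ± 2.94 by day 4. At day 7 it was 49.0% ± 1.06, with a range (48.0% to 50.1%) wholly below that of steady state (52.7% to 58.6%). Oas1a went from 21.3% ± 1.90 to 31.4% ± 1.75 and Oasl1 from 9.32% ± 2.38 to 17.1% ± 1.64 between steady state and day 1. The day 1 shares of these 3 genes did not overlap those of steady state in any library. Oas1c went from 1.28% ± 0.473 to 0.399% ± 0.104 of the total and stood at 2.18% ± 0.223 at day 4. Oasl2 and Oasl1, which lie side by side, had a ratio per kb of 6.28 ± 1.83 at steady state and 2.07 ± 0.285 at day 1.

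**Figure D3:**
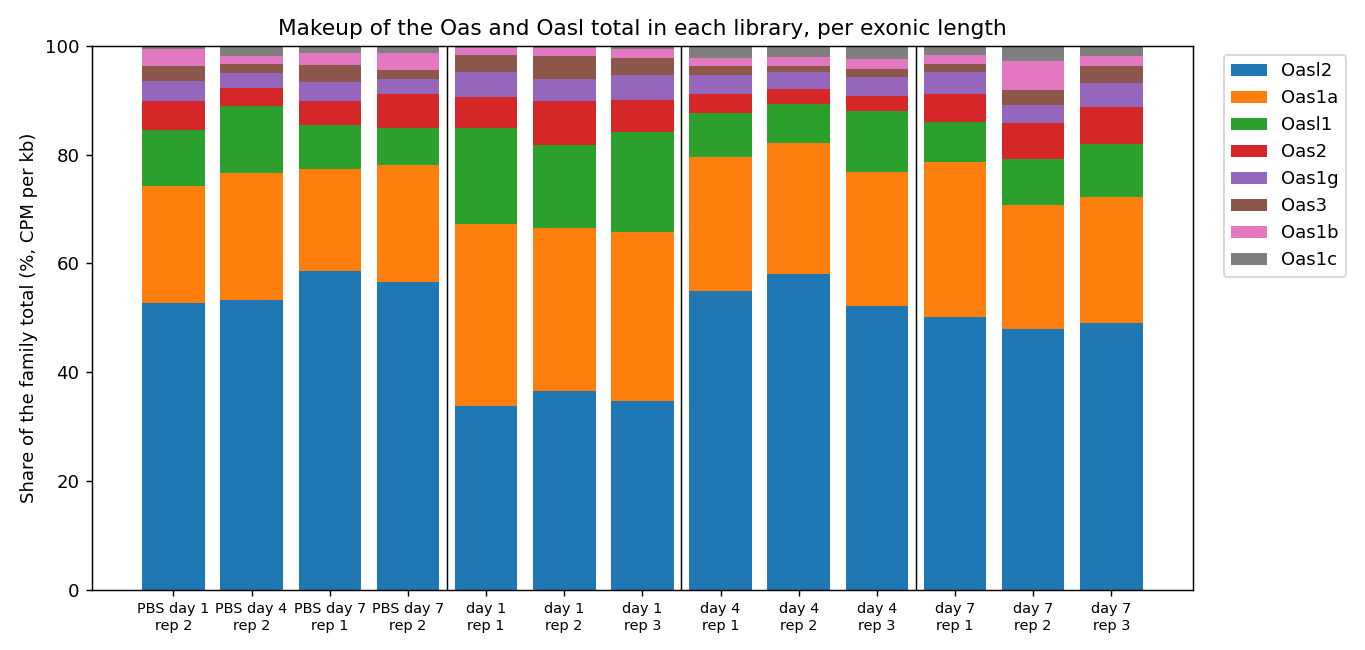
Share of each gene in the summed CPM per kb of the 8 Oas and Oasl genes (stacked bars, %) in each of the 13 libraries, with lines between steady state, day 1, day 4 and day 7. The bottom segment, Oasl2, takes 33.9% to 36.6% in the 3 day 1 libraries and 48.0% to 58.6% in the others.

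Position in the cluster and change at day 1 did not run together in a simple order. Oas2 and Oas3 at one end and Oas1g and Oas1a towards the other, where Oas1d lies last, had log2 fold changes of 3.23 to 3.42, and Oas1c and Oas1b between them had 1.09 and 2.08. The 4 remaining Oas1 genes of the cluster were scarce, at mean levels of 0.620 to 1.95 CPM at steady state and 0.915 to 2.33 CPM at day 1, with log2 fold changes of 0.22 (SE 0.68) for Oas1d, -0.06 (SE 0.74) for Oas1e, 0.25 (SE 0.71) for Oas1f and 0.54 (SE 0.73) for Oas1h. Oas1d, for which oocytes are the known site of expression, was at 0.250 to 3.18 CPM at steady state, 0.111 to 0.452 CPM at day 4 and 0.0542 to 0.164 CPM at day 7.

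**Figure D4:**
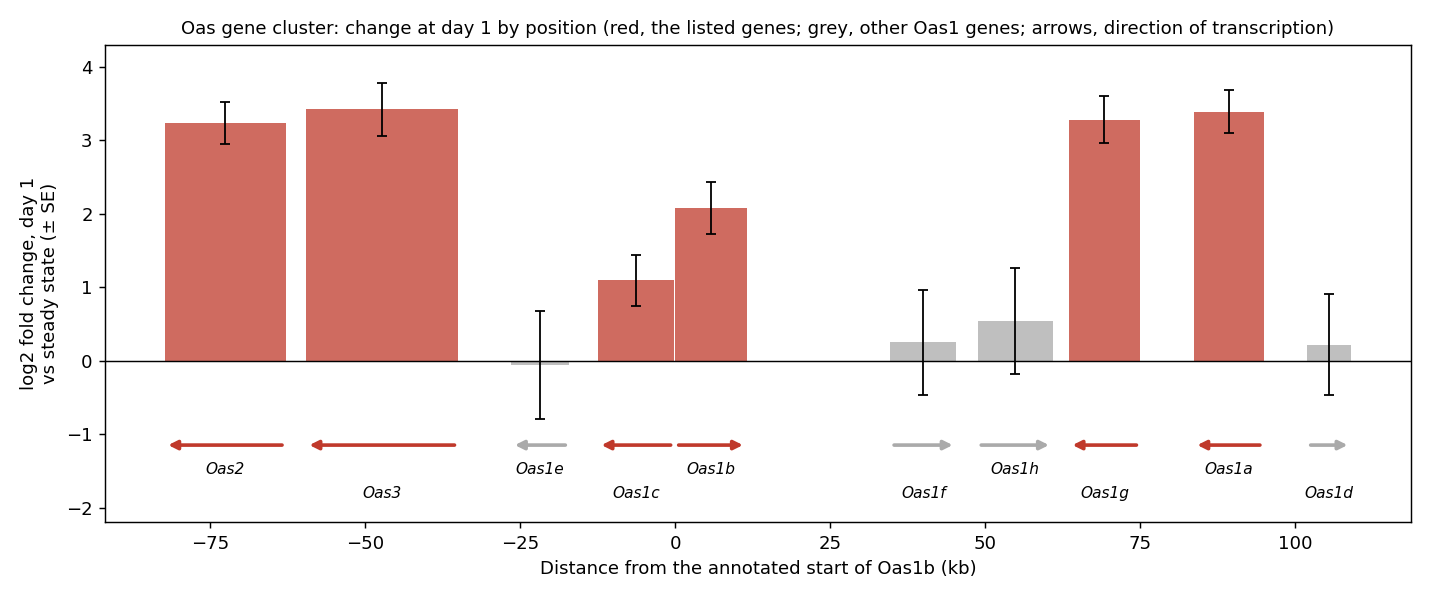
Log2 fold change at day 1 against steady state (bars, with SE) of the 10 genes of the Oas cluster, placed by distance in kb from the annotated start of Oas1b, with bar width equal to gene length and arrows for the direction of transcription. Red bars are Oas2, Oas3, Oas1c, Oas1b, Oas1g and Oas1a, of which Oas1c (1.09) is lowest, and grey bars are the scarce Oas1e, Oas1f, Oas1h and Oas1d with values of -0.06 to 0.54.

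Over the 13 libraries, 7 of the genes moved together. Pearson's r of log2(CPM + 0.5) was 0.87 to 0.99 (median 0.94) for the 21 pairs without Oas1c and 0.33 to 0.56 for the 7 pairs with it. The libraries share their conditions, and after the condition means were taken away r was 0.0041 to 0.92 (median 0.52) for the same 21 pairs. The lowest values then were those of Oas1b with Oas1a, Oasl1, Oasl2 and Oas1g, between 0.0041 and 0.037. Of 11452 other genes with a mean of at least 5 CPM, the 10 with the highest r to the mean profile of the family were Ifit3 (0.997), Ifit3b, Isg15, Gbp3, Ddx58, Gbp10, Phf11d, Gm12250, Dtx3l and Ifit1 (0.986), of which 4 were also among the first 10 by Spearman's rho.

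The gene lists used from here on were, like the family, chosen with earlier results of these data known. Their values are given as a description, and none of their counts is used as support. Of the 11 genes listed for 2-5A and the response to double-stranded RNA, 7 rose at day 1 and 0 fell (edgeR, adjusted over all 19984 genes). They were Zbp1, a sensor of Z-form nucleic acid (3.67, SE 0.30, adjusted p = 6.3e-05), Dhx58, a helicase that tunes RNA sensing (3.51, SE 0.27, adjusted p = 4.2e-05), Tlr3, the endosomal receptor for double-stranded RNA (2.06, SE 0.29, adjusted p = 0.00167), the RNA sensors Ddx58 (1.92) and Ifih1 (1.89), the kinase gene Eif2ak2 (1.65) and the RNA editing gene Adar (1.55). The adaptor gene Mavs (-0.09, adjusted p = 0.856) and the antiviral gene Zc3hav1 (0.79, adjusted p = 0.0809) did not pass. Nor did Pde12, a phosphodiesterase that degrades 2-5A (-0.35, SE 0.43, adjusted p = 0.721), and Abce1, a ribosome recycling factor (0.50, SE 0.23, adjusted p = 0.301). Of all genes, 1.68% were called higher at day 1 and 0.671% lower. The median of the list was 1.65, against -0.10 over all genes.

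Among 11 genes of interferon signalling, 4 rose at day 1 and 0 fell, beside 1.68% and 0.671% of all genes. Irf7, a transcription factor of the interferon genes, was at 131, 228, 109 and 101 CPM at steady state and 1759, 1149 and 924 CPM at day 1 (3.17, SE 0.32, adjusted p = 0.000139). It was at 293, 297 and 287 CPM at day 4 and 188, 118 and 176 CPM at day 7, so that the day 4 libraries lay above all steady-state libraries. Usp18, a brake on the interferon receptor, rose by 2.65 (SE 0.29, adjusted p = 0.000227), and Stat2 and Irf9, which act together on the ISRE, by 1.81 (SE 0.24, adjusted p = 0.000916) and 1.33 (SE 0.23, adjusted p = 0.00663). The receptor genes Ifnar1 (0.07, adjusted p = 0.874) and Ifnar2 (-0.25, adjusted p = 0.764), the kinase genes Jak1 and Tyk2, and Irf1, Irf3 and Socs1 did not pass. The median of this list was 0.29.

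All 8 reference interferon-stimulated genes, a list also chosen with earlier results known, rose at day 1, with a median of 3.19. Of all genes, 1.68% were called higher. The largest changes were those of Ifit3 (4.67, SE 0.31, adjusted p = 2.3e-05), Mx1 (4.49, SE 0.58, adjusted p = 0.000916) and the ubiquitin-like modifier gene Isg15 (3.99, SE 0.31, adjusted p = 4.3e-05). Isg15 went from 41.1, 35.4, 29.3 and 34.3 CPM at steady state to 927, 379 and 367 CPM at day 1, with 34.1, 39.4 and 38.1 CPM at day 4 and 37.4, 37.2 and 40.9 CPM at day 7. Replicate 1 of day 1 was the highest for 7 of these 8 genes.

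**Figure D5:**
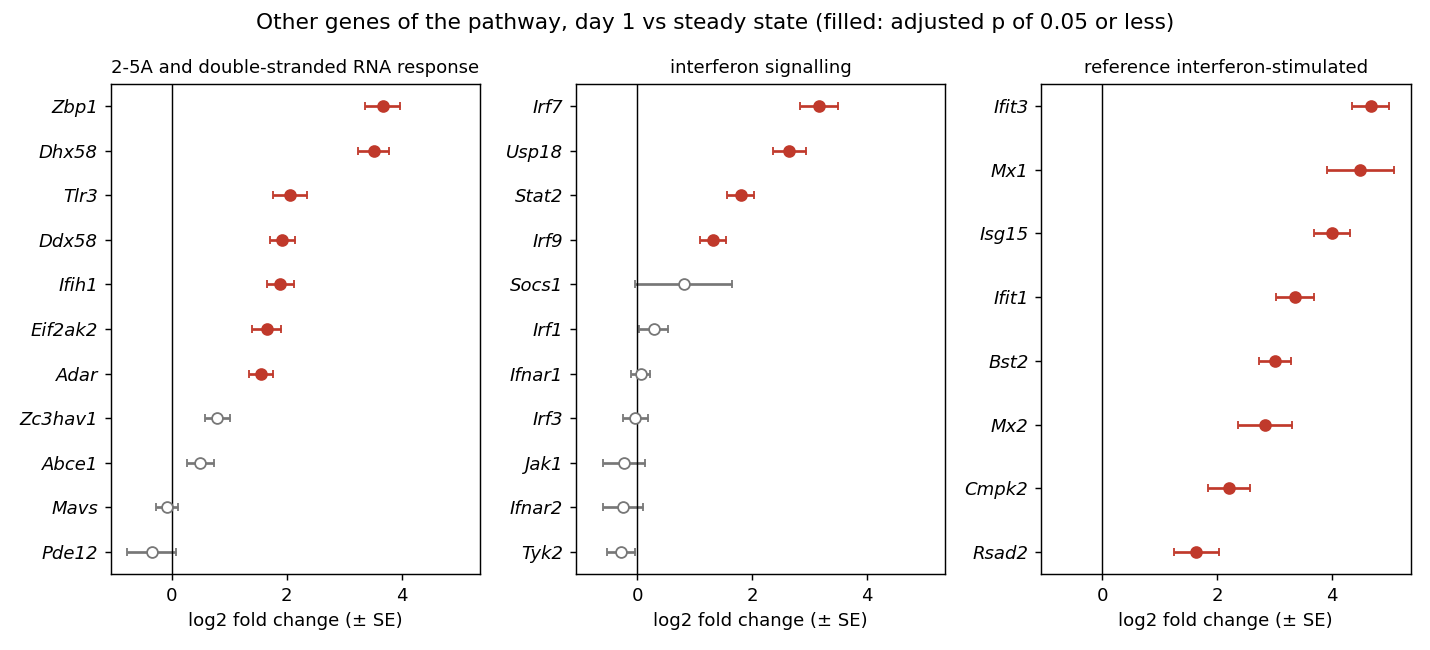
Log2 fold change at day 1 against steady state (points, with SE) of 30 other genes in 3 lists, filled where the edgeR adjusted p-value is 0.05 or less. Filled points are 7 of 11 genes of the 2-5A and double-stranded RNA response, 4 of 11 of interferon signalling and 8 of 8 reference interferon-stimulated genes, and the open points include Mavs at -0.09.

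Of these 30 genes, 19 were higher and 0 lower at day 1, where 2.35% of all genes were called in either direction. At day 4, 18 of the 30 were lower than at day 1 (1.43% of all genes called in either direction), all of the 19 but Irf9, and 0 were higher. With the replicate number as a block 10 were lower, Eif2ak2 no longer among them, and the call of Irf7 was lost without any 1 of the 3 day 4 libraries. The falls from day 1 were largest for Mx1 (-5.67, SE 0.70, adjusted p = 0.00124), Ifit3 (-4.19, adjusted p = 0.00012) and Isg15 (-3.91, adjusted p = 0.000141), followed in the other lists by Zbp1 (-3.25), Dhx58 (-2.70), Usp18 (-2.48), Eif2ak2 (-2.14), Irf7 (-2.13) and Stat2 (-1.76). At day 7, 19 of the 30 were lower than at day 1 (8.13% of all genes), among them Mx1 (-5.09), Ifit3 (-4.75), Ifit1 (-4.01), Isg15 (-3.86), Dhx58 (-3.36), Zbp1 (-3.27), Usp18 (-3.24), Irf7 (-2.99), Tlr3 (-2.15) and Stat2 (-1.72). At day 4 and day 7 against steady state, and between day 4 and day 7, edgeR called 0 of the 30 genes. DESeq2 called 3, 0 and 1 of them. An unadjusted p under 0.05 was found for 4, 0 and 6 of the 30, beside 2602, 2691 and 3735 of the 19984 genes tested.

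Transcripts of the interferons themselves were scarce. Of 21 ligand genes, 4 had no count in any library and 15, those 4 included, had no more than 3 counts in any library, the number taken as the detection floor. Ifnb1 had at most 7 counts in a library and 11, 3, 5 and 0 counts in all at steady state, day 1, day 4 and day 7. The gamma interferon gene Ifng had at most 17 counts, and 10, 33, 10 and 12 counts in all. The lambda interferon genes Ifnl2 (65, 22, 7 and 1 counts) and Ifnl3 (22, 28, 5 and 0 counts) were the only ones to pass the filter, and neither passed the test in any comparison. All these sums are over 4 libraries at steady state and 3 at each day. At steady state a single library held 47 of the Ifnl2 counts, and a single library 21 of the Ifnl3 counts. At day 1 Ifnl2 had 2 to 14 counts and Ifnl3 7 to 13 counts in each library. For the 19 ligand genes under the filter a change could not be tested at this depth.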

How the data were processed

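RNA of CD45- thymic cells was sequenced in 13 libraries (4 of steady state, and 3 for each of day 1, day 4 and day 7 following TBI). By their processing notes and methods, the authors trimmed the reads (Trimmomatic 0.38), aligned them to GRCm38.p5 (STAR 2.7.0e) and counted them per gene of GENCODE M12 (featureCounts 1.6.3), and the deposited values are raw counts, with an exonic length of each gene as the 1 other column. Every sample column was used. The study's methods give default settings for the counting, under which strand is ignored and reads that align to several places or fall on several genes are left out. Steady-state columns carry no replicate number of the labels and were used as a group. Symbols came from GENCODE M21 (53274 of 53379 identifiers).

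Counts were fitted with edgeR 4.0.16 in R 4.3.3 in 1 model over all 13 libraries with a term for condition. Genes passed filterByExpr() (count minimum 10, total minimum 15), TMM gave the normalization factors, and the quasi-likelihood F-test was adjusted after Benjamini and Hochberg over 19984 genes, with calls at 0.05 or less (common dispersion 0.177). The SE is the size of the log2 fold change over the square root of F. The procedure was tested on simulated data. CPM is TMM-normalized, per kb it is divided by the deposited exonic length, and correlations used log2(CPM + 0.5). Alternatives were DESeq2 1.42.0, RLE scaling, other filters, the 2 conditions alone, the tag kind or replicate number as a covariate, each library left out, CPM from total counts, another gene length and Spearman's rho. Comparison within a kind of tag was added after seeing the data. The family and all lists were chosen with earlier results of these data known. Named beside the 8 genes were all other Oas genes as values, Irf7 and Isg15, the 3 largest changes past the threshold in each list and comparison, and the 10 genes most alike. Other list members were named to account for each list. A pair of genes of the pathway lists is not reported here and not counted in the lists.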

Additional observations from a re-analysis of the deposited data

Results flagged for a closer look

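None of the 8 Oas genes had a steady-state library far from the other 3. Of 42 genes tested at steady state, the 8 Oas genes included, 2 had a library that stood apart by Dixon's ratio (the 95% limit for 4 libraries), where chance gives about 2.1. Both were in the PBS control of day 1, replicate 2. Ifit1 was at 148.5 CPM there and at 71.1 to 83.6 CPM in the other 3 libraries (ratio 0.839). Ifit3 was at 81.4 CPM there and at 65.0 to 66.1 CPM in the others (ratio 0.936).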

How the results depend on the processing

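The count of Oas genes called at day 1 was 7 to 7 without each library in turn, and that at day 7 against day 1 likewise 7 to 7, while day 4 against day 1 gave 6 to 7, and the other 3 comparisons 0 to 0. DESeq2 called 8 Oas genes at day 1 and 1 at day 4 against steady state (Oas1c both times, log2 fold changes 1.15 and 1.13). The shares of all genes called in these alternative fits are not given. Nothing is therefore read from the counts of Oas or pathway genes in this section. For the 30 pathway genes, counts without each library were 18 to 19 at day 1, 13 to 18 at day 4 against day 1, 19 to 19 at day 7 against day 1 and 0 to 0 in the other 3 comparisons. Against steady state at day 4, DESeq2 called 3 pathway genes and the fit without a filter 1, and at day 7 against day 4 DESeq2 called 1.

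With the replicate number as a replicate block among the libraries after TBI, 10 pathway genes and 5 Oas genes were called at day 4 against day 1 (Oas1b and Oasl2 lost), 7 Oas genes at day 7 against day 1 and 0 at day 7 against day 4. Deviations of libraries with the same number correlated at a mean of -0.67 between day 1 and day 4, -0.14 between day 1 and day 7 and 0.05 between day 4 and day 7, so that the numbers were not taken as pairs. No paired analysis was possible because the steady-state columns carry no replicate number of the labels for the comparisons with steady state. The difference of Oas1b at day 4 against day 1 also missed the threshold with the tag kind as a covariate (-2.28) and without each of the 3 day 4 libraries (-2.22 to -2.43). Eif2ak2 at day 4 against day 1 missed the threshold with the block (-2.14), and Irf7 without day 4 replicate 1, 2 or 3 (-2.08, -2.14 and -2.11). The cause was not tested.

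Of the Oas genes, Oas3 at day 7 against day 4 went to -0.17 without day 7 replicate 3, and Oas1b to -0.43 without day 7 replicate 2. RLE in place of TMM moved the median of all genes at day 4 against steady state from -0.13 to -0.05 and at day 7 against day 4 from 0.11 to 0.05. For Oas1c, with as few as 43 counts in a library, and the other Oas1 genes, with as few as 0, depth limits the precision.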
